A study of Mus musculus with 12 samples.

Results

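Regions near the transcript starts of protein-coding genes that were called accessible on sorted mitotic chromosomes, and in none of the libraries of cells, were examined in mouse embryonic stem cells (ESCs). Overlapping or touching ATAC-seq peaks from all 12 libraries were joined, which gave 231395 regions on chromosomes 1 to 19 and X. Members were chosen by their calls alone. A member had a peak in at least 3 of the 4 libraries of sorted chromosomes and in none of the 8 libraries of asynchronous and mitotic cells, and lay within 1 kb of an annotated start. There were 3374 such regions among 44399 promoter regions, which is 7.6%. Over all merged regions, promoter or not, 9796 had this pattern of calls, or 4.23%, and the 6422 of them that were not promoter regions are called distal here.

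The libraries came from a WT line (WT26) and from a Suv39h dn line (DN57), which lacks both Suv39h1 and Suv39h2, the enzymes that trimethylate histone H3 at lysine 9 in heterochromatin. Each genotype was 1 male line, so a difference between lines cannot be told apart from a difference between genotypes. Each line was assayed as asynchronous ESCs, as ESCs arrested in mitosis with 0.1 µg/ml demecolcine for 6 h, and as chromosomes sorted by flow from cells arrested in the same way with DNA stained by a Hoechst dye together with chromomycin A3. Each of the 6 groups had 2 libraries, and nothing in the sources used here says that these came from separate cultures. The material given to the transposase also differed, with detergent-isolated nuclei of asynchronous cells, mitotic cells, and chromosomes released from swollen cells in a polyamine buffer with detergent and then sorted, so the preparation cannot be told apart from the state of the chromosomes.

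In ATAC-seq a transposase inserts adapters into DNA that is not covered by nucleosomes or other proteins, and short fragments pile up where such DNA is exposed. In cycling mammalian cells the nucleosome-poor stretch just upstream of an active start gives the typical promoter peak, and the first nucleosome downstream of the start is usually well positioned. Many mammalian promoters are CpG islands, stretches rich in G, C and CpG dinucleotides that are mostly free of DNA methylation. During mitosis chromosomes condense, transcription largely ceases and many sequence-specific factors leave the DNA, while many CpG island promoters remain accessible.

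The members with the highest fold enrichment show the kinds of sequence that were found. The 101 bases around the mean summit over libraries are given for 8 of them, on the plus strand of GRCm38 with CpG in capitals. None of these windows overlaps an untranslated region. The first 3 were built of short tandem repeats, the next pair are copies of a repeated gene family, and the last 3 matched themselves at no more than 40% at any shift tried. The member at Zdhhc6 is also within 1 kb of a start of Vti1a, and that at Gemin4 of Dbil5. The windows lie at chr2:11717253-11717353, chr11:116360996-116361096, chr9:77532869-77532969, chr14:6038733-6038833, chr14:4109920-4110020, chr19:55315519-55315619, chr8:41133967-41134067 and chr11:76217382-76217482, in the order in which they are printed.
Il15ra: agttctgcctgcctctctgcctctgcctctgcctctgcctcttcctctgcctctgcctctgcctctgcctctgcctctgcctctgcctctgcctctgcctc
Rnf157: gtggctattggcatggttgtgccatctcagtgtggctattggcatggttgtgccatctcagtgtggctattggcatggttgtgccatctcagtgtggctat
Lrrc1: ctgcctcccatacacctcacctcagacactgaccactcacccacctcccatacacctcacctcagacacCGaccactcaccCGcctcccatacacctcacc
Gm8206: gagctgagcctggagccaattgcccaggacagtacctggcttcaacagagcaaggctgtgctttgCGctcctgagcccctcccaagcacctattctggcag
Gm8108: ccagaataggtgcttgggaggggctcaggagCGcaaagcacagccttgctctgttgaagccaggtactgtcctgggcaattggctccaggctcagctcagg
Zdhhc6: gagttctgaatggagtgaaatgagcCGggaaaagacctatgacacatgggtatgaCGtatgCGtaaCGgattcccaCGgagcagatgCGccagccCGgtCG
Mtus1: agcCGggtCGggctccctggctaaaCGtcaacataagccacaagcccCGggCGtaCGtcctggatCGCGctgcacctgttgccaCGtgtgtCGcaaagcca
Gemin4: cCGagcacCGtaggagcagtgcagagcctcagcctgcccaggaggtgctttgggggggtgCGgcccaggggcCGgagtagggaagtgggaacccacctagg
The window at Rnf157 matched itself at 100% of its bases when shifted by 31 bp. That at Lrrc1 matched itself at 93.4% when shifted by 40 bp, and that at Il15ra at 89.9% when shifted by 12 bp. The windows at Gm8206 and Gm8108, both on chromosome 14, were identical over all 98 bases that could be compared once 1 of them was read on the other strand, so their reads can be shared between copies and their values are uncertain. A measure over longer windows was added after the data had been examined, and it does not count all such repeats. Among the first 50 members by rank, which include the first 3 windows above, it found 1. Of the 3374 windows of 201 bp around member summits, 17 matched themselves at 80% or more at a shift of 2 to 50 bp (0.504%), against 7 of 3338 shared promoter regions and 1 of 1222 promoter regions of asynchronous ESCs, both defined next.

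For comparison, shared promoter regions were those called in at least 3 sorted libraries and in at least 1 library of cells (3338 regions), and asynchronous-only promoter regions were those called in at least 3 asynchronous libraries and in no library of mitotic cells or sorted chromosomes (1222 regions). Differences between these sets are described without a test, because regions are not replicates of a condition. GC content, sequence and position were not named in the rule, apart from the limit of 1 kb. Position is nevertheless partly fixed by it, because a region that touched a peak of cells was left out and promoter peaks of asynchronous ESCs lie mostly near starts, at median distances of 81 to 112 bp over the 4 libraries. Features that change with distance from a start carry the same limit.

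Members lay mostly downstream of transcript starts. Their summits were at a median of 300 bp from the nearest start, against 109 bp for shared regions and 107 bp for asynchronous-only regions. Within 100 bp of a start lay 17.6% of member summits, 47.3% of shared summits and 48.8% of asynchronous-only summits. Only 26.4% of members had their summit upstream of the start, against 49.9% and 66.2% of the other sets. The 100 bp just upstream of the start, where 37.0% of asynchronous-only summits and 23.1% of shared summits lay, held 4.95% of member summits. The first 100 bp downstream held 12.5% of members, the stretch from 100 to 250 bp 18%, that from 250 to 500 bp 24.0% and that from 500 to 1000 bp 17.5%. Thus the label of promoter holds for members by distance, while most of them were not at the start itself.

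**Figure D1:**
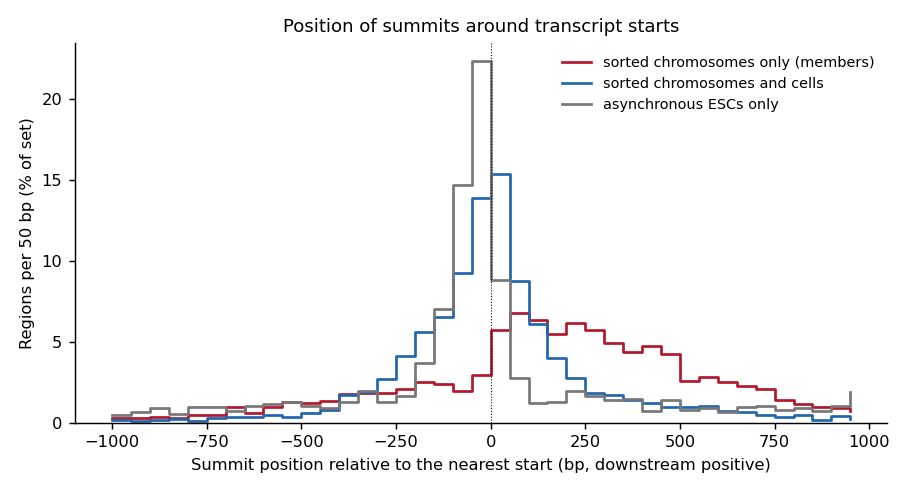
Position of region summits relative to the nearest start of a protein-coding transcript (x axis, bp, downstream positive) as the percent of each set per 50 bp (y axis), for members, shared promoter regions and asynchronous-only promoter regions. The shared and asynchronous-only sets peak at the start, whereas members spread over the first 500 bp downstream and 26.4% of them lie upstream.

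The annotation at the summits followed this position. Among members, 42.9% of summits were in introns, 23.5% in coding exons, 16.7% in untranslated exons of coding transcripts and 4.68% in exons of other transcripts, and 12.3% were outside protein-coding genes. Among shared regions, 22.1% were in introns, 11.4% in coding exons, 31.4% in untranslated exons and 31.8% outside protein-coding genes. The median merged member was 195 bp long, against 342 bp for shared regions and 162 bp for asynchronous-only regions. A merged region grows with the peaks joined in it, and by definition shared regions join peaks of sorted chromosomes and of cells. Their greater length is therefore partly fixed by the definitions of the sets.

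Members were rich in GC at every distance from the start, with medians from 59.2% to 65.2% over 6 ranges of distance. Within 100 bp of the summit their median GC content was 62.2%, with 80% of members between 55.7% and 69.7%. Only 0.80% of members were under 50% GC. Shared regions had a median of 63.7%, asynchronous-only regions 57.2% with 19.4% of them under 50%, and distal regions called only on sorted chromosomes 57.2%. Windows of the same length at all 93145 annotated starts had a median of 57.2% and those 300 bp downstream of starts 54.2%, which is about where members lie. The windows 300 bp from starts were added after the data had been examined. Averaged over members, GC content was 64.4% at 100 bp left of the summit, 61.4% at the summit and 64.1% at 100 bp right. Shared regions had 64.2%, 62.6% and 64.4% at the same positions. At 500 bp to either side members still had 57.3% and 57.2%, where shared regions had fallen to 53.9% and 54.9%.

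**Figure D2:**
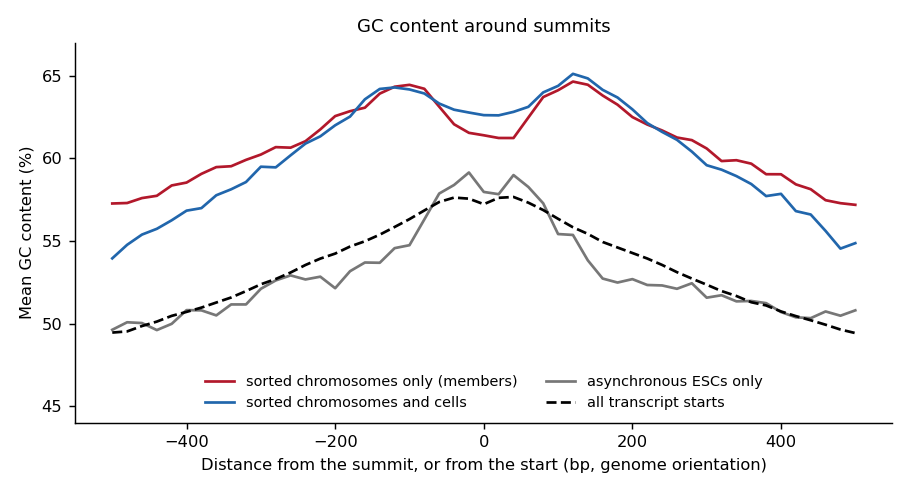
Mean GC content (y axis, percent) in steps of 20 bp to either side of the summit (x axis, bp, in genome orientation) for members, shared and asynchronous-only promoter regions, with the same profile centred on all annotated starts as a dashed line. Members and shared regions run above the other lines across the whole window. Both dip around the summit, where members have 61.4% and shared regions 62.6%. The y axis does not start at 0.

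CpG was denser in members than in distal regions with the same pattern of calls, which by the rule lie farther than 1 kb from starts. The observed over expected ratio of CpG, which is 1 where CpG is as frequent as the C and G content predicts, had a median of 0.622 in members, 0.759 in shared regions and 0.526 in asynchronous-only regions. In distal regions called only on sorted chromosomes it was 0.184. Windows at all annotated starts had a median ratio of 0.504 and those 300 bp downstream of starts 0.413, so nearness to a start is part of this difference. The median member window held 12 CpG, the median shared window 15 and the median distal window 3.

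Sequence motifs that are common at active promoters were found in fewer members than shared or asynchronous-only regions, whose summits lie nearer to starts. Motifs were searched on both strands of the 201 bp windows, and a match is only a match of letters. The CCAAT box (CCAAT), bound by NF-Y, occurred in 12.7% of members, 26.4% of shared regions and 31.3% of asynchronous-only regions, and in 23.9% of windows at all starts. The GC box (GGGCGG), bound by Sp1 and related factors, occurred in 26.4% of members, 46.5% of shared and 38.4% of asynchronous-only regions, and in 32.7% at all starts. The Ets motif CCGGAAG was found in 3.68%, 10.8% and 10.6% of the 3 sets, the Nrf1 motif GCGCATGC in 0.593%, 2.70% and 2.13%, the cAMP response element TGACGTCA in 0.415%, 3.06% and 1.47%, the Yy1 motif AAGATGGCG in 0.682%, 2.22% and 1.47%, and TCTCGCGA in 0.119%, 2.64% and 0.655%. The E-box CACGTG, of which the Mtus1 window above holds a match, was found in 4.21% of members, 6.83% of shared and 4.42% of asynchronous-only regions.

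Other motifs were rare in each of these sets. The TATA box (TATAAA) occurred in 1.51% of members, 1.62% of shared regions and 3.76% of asynchronous-only regions, against 6.93% at all starts. The AP-1 motif TGANTCA was found in 2.28%, 2.01% and 5.48%, the octamer ATTTGCAT, bound by Oct4, in 0.119%, 0.449% and 2.70%, the CTCF core CCACNAGGG in 1.39%, 1.5% and 1.96%, and the motif TNAAGGTCA of Esrrb in 0.563%, 0.479% and 0.818%. Against windows 300 bp downstream of all starts, about where members lie, the order was different for most promoter motifs. There GGGCGG occurred in 20.1%, CCGGAAG in 2.88%, GCGCATGC in 0.553%, TGACGTCA in 0.223%, AAGATGGCG in 0.404% and CACGTG in 3.15%, each below the share of members. CCAAT in 18.7%, TATAAA in 7.40% and TCTCGCGA in 0.142% were above it.

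The lower share of CCAAT was also seen among members that lay at a start. Of the 589 members with a summit from 100 bp upstream to 100 bp downstream of a start, 11% held CCAAT, against 30.9% of 1576 shared and 34.0% of 594 asynchronous-only regions at the same distance. GGGCGG was in 37.0%, 53.6% and 47.6% of these and CCGGAAG in 5.77%, 15.4% and 18.7%, although the median GC content was 65.2%, 64.7% and 60.2%. From 250 to 500 bp downstream, CCAAT was in 11.9% of 810 members, 11.3% of 238 shared and 21.0% of 81 asynchronous-only regions. GGGCGG was in 23.6%, 31.5% and 30.9% of these and CCGGAAG in 3.58%, 6.30% and 1.23%. Members there had a median GC content of 62.7%, shared regions 63.2% and asynchronous-only regions 55.7%. From 100 to 250 bp downstream, CCAAT was in 12.9%, 12.1% and 18.2% of the 3 sets. From 500 to 1000 bp downstream it was in 12.4%, 18.3% and 23.3%, and from 1000 to 250 bp upstream in 15.7%, 23.5% and 26.1%. This division by distance was made after the data had been examined.

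Most members were near a gene that had another promoter peak in asynchronous cells, when 1 library was enough. For 2705 of the 3374 members (80.2%), a gene within 1 kb had another promoter peak in at least 1 asynchronous library. That peak could lie at any start of the gene. With a promoter region called in at least 3 asynchronous libraries, the share was 44.3% (1495 members). Members were near 3199 of 21728 protein-coding genes, which is 14.7%. Of these genes, 80.8% had a promoter peak in asynchronous ESCs, against 61.6% of all protein-coding genes. A promoter region called in at least 3 asynchronous libraries was found at 45.5% of genes with a member and at 35.5% of all genes, and one in at least 1 mitotic library at 50.9% and 37.6%. The nearest asynchronous peak was within 100 bp of 470 members, within 500 bp of 1817 and within 1000 bp of 2320, and its median distance was 442 bp.

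At most of these genes the asynchronous peak was the one nearer to the start, which the rule partly fixes in the way given above. Among the 2320 members with an asynchronous peak within 1000 bp, member summits were at a median of 296 bp from a start and the asynchronous summits at 93 bp. The asynchronous summit was the nearer of the pair in 1645 (70.9%), and the member lay downstream of it in 1732 (74.7%). Sorted chromosomes also had other peaks at these genes. A further promoter region was called in at least 1 sorted library at 2841 of the 3199 genes (88.8%, against 64.1% of all genes), and a shared region at 855 (26.7%, against 16.1%). The 669 members at genes without an asynchronous promoter peak had a median GC content of 60.7% and a CpG ratio of 0.522, against 62.7% and 0.644 for the others.

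Peak calls in these lists rest on few fragments. From the deposited fold and p-value, the number of fragments covering each summit and the background there were worked out. At called members the median was 6 and 9 fragments in the WT sorted libraries and 6 and 8 in the Suv39h dn sorted libraries, with a minimum of 3 or 4 and a maximum between 74 and 91. The lowest background of a library, which follows its depth, was 0.187 and 0.328 fragments per base for sorted WT chromosomes, 0.198 and 0.268 for sorted Suv39h dn chromosomes, and from 0.149 to 0.306 in the libraries of cells. The lists differed in length, with 44885 to 67027 peaks for sorted chromosomes, 22344 to 80602 for asynchronous ESCs and 1746 to 14328 for mitotic ESCs. A call missing from the short mitotic lists therefore says little. The lists hold called peaks only, so a member without a peak in cells may have had fragments there that did not reach the threshold. The part that depth and the threshold have in membership was not tested beyond the alternatives given with the limits. With q at or under 1e-05 in all 12 lists, 290 regions met the rule, and with this threshold in the sorted lists alone 225 did.

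The calls that chose the members spread over the sorted libraries as follows. WT library 1 had a peak in 2467 members and WT library 2 in 3144, and Suv39h dn libraries 1 and 2 in 2774 and 2870. All 4 libraries had a peak in 1133 members (33.6%). Of the rest, 907 lacked a peak in WT library 1, 230 in WT library 2, 600 in Suv39h dn library 1 and 504 in Suv39h dn library 2. Members made up from 4.71% to 6.44% of the list of a sorted library. The median fold enrichment of called members was 4.98 and 5.46 for WT, and 5.01 and 5.45 for Suv39h dn. Their median percentile within the library's own list was 68.8 and 73.7 for WT, and 71.8 and 66.1 for Suv39h dn.

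At the limits of the rule, members shaded into their neighbours. Members called in all 4 sorted libraries had a median fold percentile of 78.4 and those called in 3 of 63.7, and the 4682 promoter regions called in 2 sorted libraries and no library of cells had 55.4. Another 618 promoter regions had at least 3 sorted libraries and exactly 1 library of cells, with a median percentile of 76.3. For 500 of them that library was an asynchronous library 2, which had the higher background of each pair. The last 100 bp inside the limit of 1 kb held 61 members, and the first 100 bp beyond it 54 regions with the same calls.

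The calls at members give no test of genotype. They are the calls that chose the members, a region called in 1 genotype alone could not be a member, and with 2 libraries per group the smallest p of an exact permutation test is 0.33. As a description, the mean log2 number of members called was 11.44 ± 0.25 (SD, n = 2) in WT and 11.46 ± 0.03 (n = 2) in Suv39h dn, a difference of 0.02. The median fold percentile was 71.3 ± 3.46 (SD, n = 2) in WT and 69.0 ± 4.01 (n = 2) in Suv39h dn, a difference of -2.28. In both measures the libraries of the genotypes overlapped.

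Individual members agreed only loosely between libraries. Among the 1133 members called in all 4 sorted libraries, the rank correlation of the fold percentile between libraries was between 0.189 and 0.338 across members, which share libraries and are not independent, and the pairs of the same genotype had 0.255 and 0.205. The 4 summits of a member spread over a median of 99 bp, and in 21.8% of these members they lay within 50 bp of each other.

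Promoter peaks of sorted chromosomes outside the member regions gave values that the rule did not use. These were compared between the 4 sorted and the 4 asynchronous libraries. The median distance of their summits from the nearest start was 183, 207, 199 and 224 bp in the sorted libraries (WT 1 and 2, Suv39h dn 1 and 2), and 81, 96, 89 and 112 bp in the asynchronous libraries in the same order. Each sorted library lay above each asynchronous library, and the means of 203 ± 17.1 bp and 94.5 ± 13.2 bp (SD, n = 4 each) differed by 109 bp. The exact two-sided permutation p was 0.0286, the smallest that 4 against 4 libraries allow, and 0.0571 after Benjamini-Hochberg adjustment over both measures. The median GC content of the same peaks was 61.6% ± 0.626 in sorted and 60.7% ± 0.704 in asynchronous libraries (SD, n = 4 each), and the difference of 0.87 percentage points did not pass the test (p = 0.200, adjusted p = 0.200, exact two-sided permutation test). Neither measure passed 0.05 after adjustment. At q at or under 1e-05 the differences were 95.4 bp and 2.36 percentage points, each with an adjusted exact permutation p of 0.0286.

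The members with the highest mean fold percentile over the 4 sorted libraries were taken as examples, 1 per gene. Their folds are part of what chose them and are given as a description. Il15ra encodes the receptor chain that binds interleukin 15. The fold enrichment at its member, whose summit was at -1024 bp from the nearest start, was 14.4 and 14.5 in the WT libraries, and the Suv39h dn libraries had 9.52 and 15.4. At the member of Rnf157, a RING ubiquitin ligase, the WT libraries had 8.30 and 12.8 and the Suv39h dn libraries 18.9 and 23.2. Both Suv39h dn values at Rnf157 lay above both WT values, in a window that is a tandem repeat. St6galnac1, which encodes a sialyltransferase, had WT folds of 6.55 and 8.10 and Suv39h dn folds of 11.2 and 13.4, also without overlap, and the 101 bases around its summit held no CpG. None of the separations of genotypes in this list was tested, since the genes were picked from this list after their values were seen. Genotypes were separated at Rnf157, St6galnac1, Lrrc1, Mtus1 and Gemin4, and they overlapped at all other genes of the list. With 2 libraries per genotype, a full separation in either direction reaches only the smallest permutation p given above. Such separations are therefore frequent even where genotypes do not differ, and those listed are no evidence of a difference.

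Kdm2a encodes a histone H3 lysine 36 demethylase that binds unmethylated CpG through its zinc finger. Its member at chr19:4398013-4398156, 200 bp downstream of a start in an untranslated exon, had folds of 8.76, 9.19, 8.81 and 8.37, from 11, 14, 11 and 12 fragments in WT libraries 1 and 2 and Suv39h dn libraries 1 and 2. These 4 values were the most even of the group, with a mean of 8.78 ± 0.34 (SD, n = 4). Zdhhc6, a palmitoyltransferase gene, had folds of 7.47, 8.44, 9.15 and 8.06 at 419 bp downstream of a start, and Mtus1, which encodes a microtubule-associated protein, had 8.08, 9.39, 8.0 and 7.27 at -291 bp. At Gemin4, a gene of the SMN complex that assembles spliceosomal particles, the folds were 6.14, 8.37, 8.74 and 9.67 at 85 bp downstream. The genotypes overlapped at Kdm2a and Zdhhc6. At Mtus1 both WT values lay above both Suv39h dn values, and at Gemin4 they lay below.

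Other single genes in the group were Med13, a subunit of the Mediator kinase module, with folds of 8.22, 11.8, 9.18 and 6.72 in a coding exon, and Htr7, a serotonin receptor gene, with 7.03, 12, 6.64 and 8.43 in a coding exon. Lrrc1 had 10.3, 9.76, 7.80 and 7.23, with both WT values above both Suv39h dn values, and Gm8909 had 9.58, 7.71, 6.48 and 9.30. The repeated genes Gm8206, Gm2916, Gm8108 and Gm3468, all on chromosome 14 between its start and 8 Mb, had mean folds of 9.67 ± 2.2, 9.07 ± 1.12, 9.71 ± 1.79 and 9.95 ± 2.05 (SD, n = 4 each), and C130026I21Rik on chromosome 1 had 9.29 ± 1.60 (SD, n = 4). In 11 of the 16, the gene also had a promoter peak in asynchronous ESCs. The exceptions were Il15ra, Gm2916, St6galnac1, Lrrc1 and Gm8909.

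**Figure D3:**
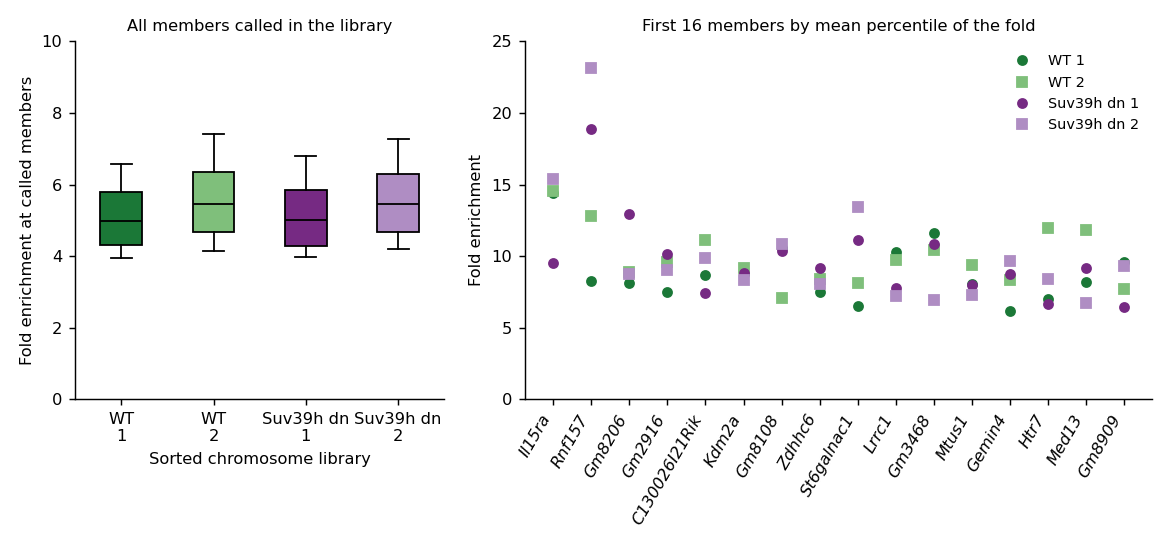
Fold enrichment (y axis) at members in the 4 libraries of sorted chromosomes. Left, boxes with the median, quartiles and 10th to 90th percentiles over all members called in the library. Right, the 16 members with the highest mean fold percentile, 1 point per library. The boxes of the 4 libraries overlap, with medians between 4.98 and 5.46, and Rnf157 spans the widest range, from 8.30 to 23.2.

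At the other end, the 3 lowest-ranked members with a peak in all 4 sorted libraries were all at Sfi1, on chromosome 11, which encodes a centrin-binding protein of centrosomes. Their mean folds were 2.88 ± 0.25, 2.82 ± 0.12 and 2.18 ± 0.10 (SD, n = 4 each), from 31 to 86 fragments over a high background. Sfi1 had 7 members, the most of any gene, followed by Zcchc14 on chromosome 8 with 5 and Adrb1, the beta-1 adrenergic receptor gene on chromosome 19, with 4. Most genes had 1 member (2767 of 3199). There were 11 members with a mean background over 5 fragments per base, and they were at Mroh2a, Pisd and Sfi1, where the copy number of the sequence was not tested. A filter on blacklisted regions is part of the stated Methods, and it was not checked here if the lists had passed it, so the count at Sfi1 may hold such regions.

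Gene lists differed in how many of their genes had a member. Among all protein-coding genes the share was the 14.7% given above, and each list is described against it without a test. The lists were drawn from gene symbols, so they can hold a gene of another kind with the same stem. Families of sensory, barrier and immune genes had few members. Olfactory receptor genes had a member at 8 of 1134 genes (0.705%, with an asynchronous promoter peak at 4.23%), vomeronasal receptor genes at 1 of 330 and defensin genes at 0 of 64. Keratin and keratin-associated genes had one at 8 of 113 (7.08%), more than the 4.42% with an asynchronous promoter peak. Chemokine and interleukin genes with their receptors had one at 12 of 134 (8.96%, with an asynchronous promoter peak at 29.1%). Il15ra, given above, belongs to the last of these lists and had the highest mean fold percentile of all members. At Olfr1344 the WT folds were 4.39 and 5.15 and the Suv39h dn folds 5.14 and 5.47, in a coding exon, and at Vmn1r200 they were 4.21 and 4.52, with 4.17 in the 1 Suv39h dn library with a peak. Cxcl12, a chemokine gene, had 5.16, 5.04, 4.2 and 6.62. Protocadherin genes had a member at 3 of 68 (4.41%) and replication-dependent histone genes at 3 of 93 (3.23%).

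Lists of genes of basic cell functions lay below the share of all genes or close to it, apart from the small list of cyclin and cyclin-dependent kinase genes. Cytosolic ribosomal protein genes had a member at 5 of 83 (6.02%), although 91.6% of them had a promoter peak in asynchronous ESCs, and proteasome subunit genes at 3 of 40 (7.5%) with 95%. At Rpl31 and Rpl21, which encode proteins of the large ribosomal subunit, mean folds were 5.23 ± 1.13 and 5.34 ± 1.58 (SD, n = 3 libraries with a peak each), and at Psmd11 7.02 ± 1.09 (n = 3). Mitochondrial ribosomal protein genes had a member at 12 of 78 (15.4%), genes of Mediator and RNA polymerase II at 7 of 43 (16.3%) and cyclin and cyclin-dependent kinase genes at 8 of 38 (21.1%). Among these were Mrpl57 with a mean fold of 5.68 ± 0.88 (n = 4), Cdk14 with 6.33 ± 1.37 (n = 4), Cdk6 with 5.33 ± 1.03 (n = 4) and Ccnb1, the mitotic cyclin B1, with 6.49 ± 1.60 (n = 3). Zinc-finger genes named Zfp had a member at 50 of 397 (12.6%), with 88.2% accessible in asynchronous ESCs, among them Zfp821 with 6.95 ± 0.74 and Zfp592 with 7.20 ± 1.02 (SD, n = 4 each).

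Several lists of transport, matrix and developmental genes had shares above 14.7%, although no list was tested against all genes. Potassium, sodium and calcium channel genes had a member at 31 of 138 (22.5%), collagen and laminin genes at 13 of 56 (23.2%), Sox, Pax, Gata, Fox and Tbx transcription factor genes at 20 of 91 (22.0%) and solute carrier genes at 72 of 371 (19.4%). Genes named Ube2, Rnf and Trim had one at 38 of 194 (19.6%), Hox genes at 7 of 39 (17.9%) and Wnt, Fgf, Bmp and Fzd genes at 11 of 63 (17.5%). The Hox list and the list of Wnt, Fgf, Bmp and Fzd genes are small, and a few genes account for their distance from 14.7%. Foxk2, a forkhead factor gene, had folds of 6.06, 8.88, 8.73 and 8.91 in the 4 sorted libraries, 705 bp downstream of a start. Hoxc13 had 5.63, 6.84, 5.69 and 6.2 and Hoxc4 5.79, 5.36, 5.64 and 5.97, both in coding exons. Kcnk2, a potassium channel gene, had 4.38, 7.28, 8.17 and 7.69, and Slc22a21, a carnitine transporter gene, 6.39, 8.44, 5.98 and 8.0. Some symbols in these lists name other functions. Bmp2k is a kinase gene and had a mean fold of 5.22 ± 0.76 (SD, n = 4), and Col4a3bp is a ceramide transfer protein gene and had 6.69 ± 0.41 (SD, n = 3).

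**Figure D4:**
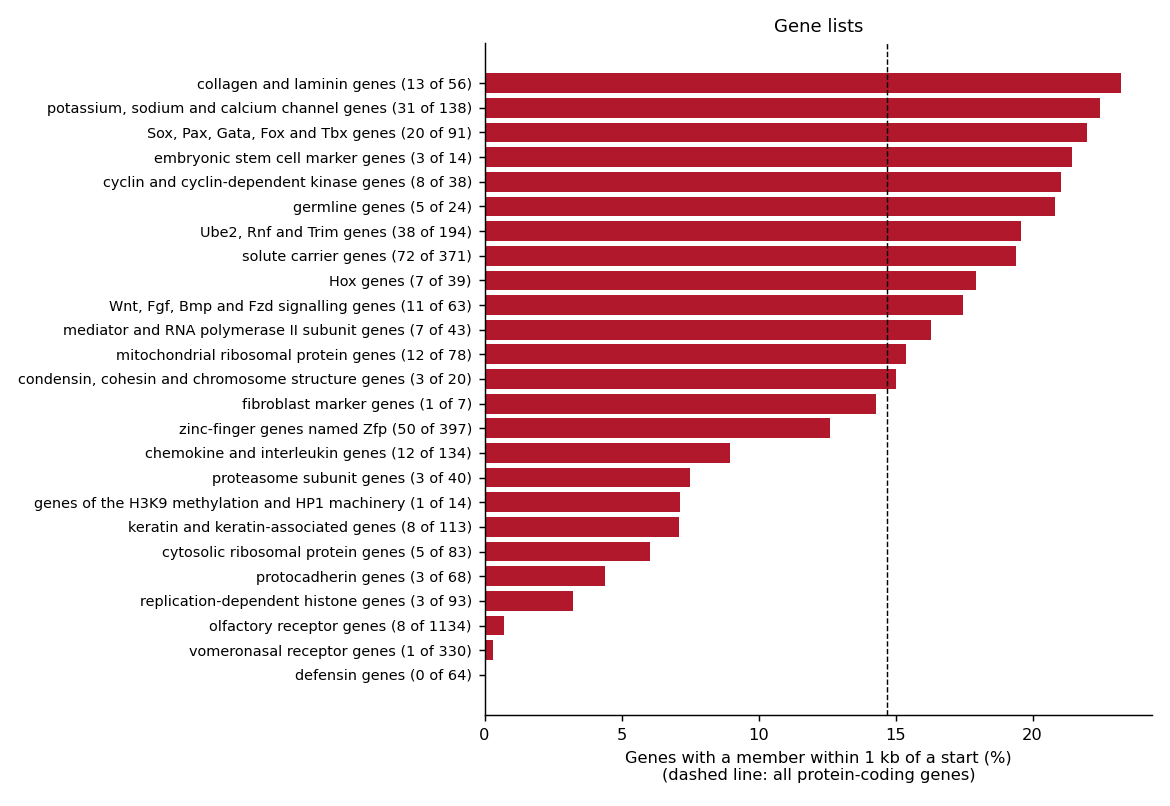
Percent of the genes of each list with a member within 1 kb of a start (x axis), with the number of genes with a member and the number in the list beside each name. The dashed line marks all protein-coding genes, 14.7%. Lists run from 0 of 64 defensin genes to 13 of 56 collagen and laminin genes.

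Genes of stem cells, germ cells and mitotic chromosomes were in lists too small to set apart. Of 14 ESC marker genes, 3 had a member. At Sox2, a pluripotency factor gene, the member at -991 bp from the start had folds of 4.46, 5.01, 4.81 and 6.08, at Utf1 the folds were 4.71, 4.70, 4.78 and 7.78, and Sall4 had a mean of 5.36 ± 1.09 (SD, n = 3). Germline genes had a member at 5 of 24 (20.8%), among them Tex15 with folds of 5.63, 9.72, 5.61 and 6.47 and Piwil2 with 5.05, 5.63, 4.99 and 6.93. Of 20 genes of condensin, cohesin and chromosome structure, 3 had a member, namely Mki67, which encodes the Ki-67 protein of the mitotic chromosome surface, with 4.36, 6.27, 3.59 and 6.33, Ncapg2 with a mean of 5.58 ± 0.38 (n = 3) and Smc4 with 5.48 ± 1.17 (n = 3). Of 14 genes of the H3K9 methylation and HP1 machinery only Cbx3, which encodes HP1 gamma, had a member, with a mean of 5.44 ± 0.24 (n = 3). All 14 had a promoter peak in asynchronous ESCs.

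Labels were checked at marker promoters. ESC marker genes had a promoter peak at 7 to 12 of 14 in the asynchronous libraries, 6 to 10 in the sorted libraries and 0 to 6 in the mitotic libraries. Fibroblast marker genes had 0 or 1 of 7 in every library, and the 1 with a member was Col1a2. Suv39h1 had a promoter peak in 2 of 6 WT and 0 of 6 Suv39h dn libraries and Suv39h2 in 4 of 6 and 2 of 6, and neither had a member, so these peaks give little check of the genotype.

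Members were unevenly spread over chromosomes. The share of promoter regions that were members was 12.9% on chromosome 8 (371 members), 10.9% on chromosome 19 (166), 10.2% on chromosome 14 (173) and 9.84% on chromosome 11 (373), against 7.6% over all chromosomes. It was 5.50% on chromosome 2 (187), 4.23% on chromosome 12 (59) and 0.926% on chromosome X, where 9 of 972 promoter regions were members. On chromosome 8, 30.6% of protein-coding genes had a member, and on chromosome X 0.949%. Of the 173 members on chromosome 14, 34 lay before 8 Mb, among 160 promoter regions there, where the repeated genes named above are.

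The background that the peak caller set also differed between chromosomes. On chromosome 8 the median background of a peak was 0.351, 0.704, 0.369 and 0.631 fragments per base in the sorted libraries (WT 1 and 2, Suv39h dn 1 and 2), and 0.300, 0.495, 0.294 and 0.459 in the asynchronous libraries in the same order. On chromosome 11 the sorted values were 0.300, 0.669, 0.363 and 0.623, and the asynchronous values 0.239, 0.421, 0.294 and 0.422. On chromosome 19 the sorted values were 0.249, 0.622, 0.274 and 0.495, on chromosome 14 0.207, 0.415, 0.229 and 0.391, and on chromosome 12 0.198, 0.396, 0.223 and 0.402. On chromosome X they stood at the floor of each library, 0.187, 0.328, 0.198 and 0.268. Both lines are male and have 1 copy of X. The part that background, copy number and gene density have in the shares of chromosomes was not tested.

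**Figure D5:**
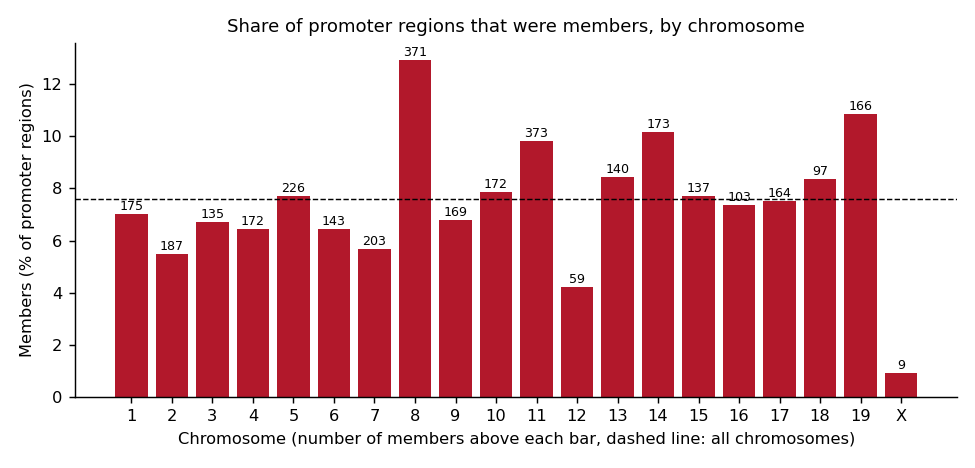
Members as a percent of all promoter regions (y axis) on each chromosome (x axis), with the number of members above each bar and the value over all chromosomes, 7.6%, as a dashed line. Chromosome 8 stands highest with 12.9% and chromosome X lowest with 0.926%.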

How the data were processed

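ATAC-seq was analysed in 12 libraries grouped by the sample labels. According to the Methods, the authors trimmed reads with Trim Galore 0.4.4, aligned them to mm10 with Bowtie2 2.2.9, removed duplicate and mitochondrial reads, kept nucleosome-free fragments, and ran MACS2 per library. The deposited lists give each peak a fold enrichment, a ratio of pileup to background, with a score and with p-value and q-value as −log10. The smallest −log10 q was 1.30. The Methods also state a removal of peaks in ENCODE blacklisted regions, which was not checked in the lists. The authors' differential analysis was not repeated.

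The fragments at a summit followed from fold and p-value for 100% of peaks with a −log10 p under 60. Depth is otherwise unknown. Starts were those of GENCODE vM21, and sequence came from GRCm38, whose chromosomes hold all peaks. The merging, the recovery of fragments and the tests were tested on simulated data. Python 3.11.15, numpy 2.4.6, scipy 1.17.1, pandas 2.3.3 and matplotlib 3.10.9 were used.

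The member regions and the 25 gene lists were chosen with earlier results of these data known. Genes named are the 16 members with the highest mean fold percentile, 1 per gene, a library without a peak counting as 0, up to 3 by the same rank in each list, the 3 lowest members with 4 peaks, and chromosomes with the 3 highest and 3 lowest shares. Chromosome 11, genes with several members, with a high background or with genotypes that did not overlap were singled out after their values were seen. Alternatives were a stricter q-value, an overlap of 50%, a distance of 500 bp, equal list lengths, all 4 sorted libraries, basic transcripts, a replicate block and leaving out each library.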

Additional observations from a re-analysis of the deposited data

How the results depend on the processing

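Values for members depend on how they are counted. Their number fell from 3374 to 290 with q at or under 1e-05 in all lists, to 225 with this threshold in the sorted lists alone, to 1777 where a library had to cover 50% of a region, and to 1133 where all 4 sorted libraries were required. Leaving out 1 library gave 1354 to 3808 members, with 2045 and 1354 without WT sorted libraries 1 and 2 and 1738 and 1629 without Suv39h dn sorted libraries 1 and 2, when the other 3 were all required. Median GC content was 63.7% under both strict thresholds, 62.7% under an overlap of 50%, a distance of 500 bp, equal list lengths, all 4 libraries or basic transcripts, and 62.2% to 63.2% with 1 library left out. The share of members whose gene had another asynchronous promoter peak was 69.3% under the strict threshold, 83.6% with it in the sorted lists alone, 75.3% with an overlap of 50%, 75.8% within 500 bp and 77.4% with basic transcripts, and 72.5% to 82.5% with 1 library left out. Leaving out the 4 mitotic libraries and the strict threshold in the sorted lists alone were chosen after seeing the data, and without the mitotic libraries there were 3446 members.

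The genotype difference in the log2 number called turned to -0.0023 within 500 bp, and without a sorted library it has no value, since the other 3 must then all have a peak. The genotype difference in fold percentile ran from -4.89 to 3.31 with 1 library left out, and turned to 2.09 without WT library 2 and to 3.31 without Suv39h dn library 2. The difference in GC content of other promoter peaks ran from 0.66 to 1.20 percentage points and that in distance from 102 to 116 bp with 1 library left out, and the strict threshold gave 2.36 percentage points and 95.4 bp, both then past 0.05. The cause was not tested. Of 102 alternative values, 71 kept their direction and size or side of the threshold.

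Libraries of the groups share only a replicate number. The deviations of same-numbered sorted libraries correlated at 0.06 over 1612 shared promoter regions, where each difference is library 1 minus library 2. With a replicate block, the exact permutation p was 1 for both genotype differences of 0.02 and -2.28, which are no test of genotype, and 0.125 for the differences of 0.87 percentage points and 109 bp, the smallest that 4 pairs allow.

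Depth limits these data, since a called peak held as few as 3 or 4 fragments and absence of a call does not show absence of fragments.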
